A study of Mus musculus with 6 samples.

Results

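Most of the genes described here encode enzymes, carriers and transporters of liver fatty acid beta-oxidation and of ketone body synthesis and export. A named list of 39 genes was taken, with 21 grouped as mitochondrial, 15 as peroxisomal and 3 as ketone body genes. Pdk4, a brake on glucose oxidation, was grouped with the mitochondrial genes, and Pex11a, which acts in peroxisome division, with the peroxisomal genes. All 39 matched a row by symbol among the 23474 genes of the table, and all 39 passed the filter of a mean of at least 1 FPKM that left 10476 genes to be tested. The list was drawn up with earlier results of these data known.

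The study fed male C57BL/6J mice from 5 weeks of age for 12 weeks and sequenced liver mRNA at 17 weeks. The BT group ate a high-fat diet with Bangpungtongseong-san extract, from an oriental herbal medicine, at 1.5% by weight and the HFD group ate the high-fat diet alone. Each diet has 3 libraries, and all comparisons are BT against HFD. The study set up 10 mice per diet, and whether 1 library holds 1 liver or several is not stated, so p-values cover only variation among the libraries, which may be technical. Both groups share the high-fat feeding, so no group shows the lean state.

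In the liver, fatty acids are activated to acyl-CoA and then broken down in cycles that each release acetyl-CoA. Mitochondria receive acyl chains through the carnitine shuttle and oxidise most long- and medium-chain fatty acids, while peroxisomes shorten very-long-chain and branched chains that mitochondria handle poorly. Surplus acetyl-CoA from mitochondria is turned into ketone bodies, which leave the liver as fuel for other tissues. Many genes of all 3 branches are known targets of the nuclear receptor PPARA, which binds DNA with RXR at direct repeats of a short half-site.

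With BT, 1 of the 39 genes rose and 3 fell. Slc27a2, which activates very-long-chain fatty acids, was 1.47-fold higher, whereas Acaa1b, a peroxisomal thiolase, Eci1, a mitochondrial isomerase, and Pdk4, a brake on glucose oxidation, stood at 0.679, 0.706 and 0.466 times their HFD level. The other 35 genes did not pass the test, which does not show that they were equal in both diets. The 4 calls are 10.3% of the 39 genes, against 13.3% of all genes tested, so the share of changed genes in the list was near that of the whole table. In single directions, 6.01% of all genes rose and 7.33% fell. The median change of the 39 genes was 0.03 on the log2(FPKM + 1) scale, against 0.07 over all genes tested, and 20 of 39 were positive, against 59.2% of all genes. In bulk liver, fewer cells of a type and less RNA per cell cannot be told apart.

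The 5 promoter windows below belong to the 4 called genes and to Acaa1a, the uncalled paralog of Acaa1b. They are shown so that the sequence before the RefSeq starts of the called genes, and of both thiolase copies, can be set beside their values. Each is the 250 bases before the gene's start in RefSeq, build GRCm38.p6, read 5′ to 3′ on the gene's strand. By the GENCODE M21 gene coordinates given below, only the Acaa1b window lies wholly outside its gene. The Acaa1a and Slc27a2 windows lie inside their genes, and the Eci1 and Pdk4 windows run into theirs. Which start the liver uses was not tested. Capitals mark the PPARA half-site AGGTCA and the CCAAT box, each searched on both strands (as TGACCT and ATTGG on the other). The CCAAT box was added after the sequences were read.
The Acaa1b window lies at chr9:119157094-119157343, minus strand, with CCAAT boxes starting 185 and 38 bases before the start.
Acaa1b: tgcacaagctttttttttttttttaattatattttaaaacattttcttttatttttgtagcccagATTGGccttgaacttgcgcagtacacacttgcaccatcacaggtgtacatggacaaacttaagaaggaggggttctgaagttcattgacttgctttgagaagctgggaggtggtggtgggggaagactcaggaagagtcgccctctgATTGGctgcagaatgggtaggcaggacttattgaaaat
The Acaa1a window lies at chr9:119341044-119341293, plus strand, with CCAAT boxes 199, 122 and 107 bases before the start.
Acaa1a: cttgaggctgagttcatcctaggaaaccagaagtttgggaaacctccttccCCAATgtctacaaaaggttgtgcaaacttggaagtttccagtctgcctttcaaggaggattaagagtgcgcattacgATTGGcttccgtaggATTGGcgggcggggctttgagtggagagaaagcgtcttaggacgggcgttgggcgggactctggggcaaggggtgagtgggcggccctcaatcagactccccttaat
The Slc27a2 window lies at chr2:126552774-126553023, plus strand, with a half-site 220 bases before the start.
Slc27a2: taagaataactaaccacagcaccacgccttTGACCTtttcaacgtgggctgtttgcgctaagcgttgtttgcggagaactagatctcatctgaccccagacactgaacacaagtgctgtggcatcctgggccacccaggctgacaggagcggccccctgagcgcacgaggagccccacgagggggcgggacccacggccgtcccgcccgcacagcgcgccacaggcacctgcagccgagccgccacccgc
The Eci1 window lies at chr17:24426433-24426682, plus strand, with neither motif.
Eci1: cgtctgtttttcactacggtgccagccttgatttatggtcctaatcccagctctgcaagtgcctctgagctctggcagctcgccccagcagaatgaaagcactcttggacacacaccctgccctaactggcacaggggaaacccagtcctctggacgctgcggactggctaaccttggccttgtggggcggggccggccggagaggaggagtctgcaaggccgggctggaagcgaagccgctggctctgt
The Pdk4 window lies at chr6:5496279-5496528, minus strand, with a CCAAT box 131 bases before the start.
Pdk4: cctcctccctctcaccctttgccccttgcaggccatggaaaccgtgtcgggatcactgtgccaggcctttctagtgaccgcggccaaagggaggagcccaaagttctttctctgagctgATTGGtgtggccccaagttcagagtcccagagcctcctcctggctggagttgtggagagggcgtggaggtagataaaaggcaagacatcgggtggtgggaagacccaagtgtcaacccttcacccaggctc

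Among the 34 genes of the list with a RefSeq promoter, 5 held the half-site in that window (Acadm, Acadvl, Cpt1a, Echs1 and Slc27a2), or 14.7%, against 14.0% of all 32851 promoters. The direct repeat AGGTCANAGGTCA was in 0 of the 34 and in 0.0335% of all promoters. Its looser form AGGNCANAGGNCA, where N is any base, was in 0 and in 0.338%. The CCAAT box was in 15 of the 34 (44.1%), against 33.8% of all promoters. These are matches of letters in a short window and say nothing of binding.

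The 6 libraries were of like depth but differed with transcript length. FPKM, a count of fragments scaled to transcript length and sequencing depth, summed to 783151 to 812697 in BT libraries and 814680 to 930139 in HFD libraries, and the lowest values put depth at about 14000000 to 15100000 fragments in BT libraries and 13800000 to 15800000 in HFD libraries. Genes with transcripts under 1000 bases had a median log2 deviation of -0.27 to -0.22 from their own mean in BT libraries and 0.12 to 0.46 in HFD libraries. For transcripts over 8000 bases it was 0.11 to 0.18 in BT libraries and -0.32 to 0.03 in HFD libraries. HFD replicate 2 was at the HFD extreme for both. Below, calls are therefore also given after the trends on transcript length and GC content had been taken out of each library, a setting under which 8.69% of all genes were called (4.4% higher and 4.29% lower). Library codes in the labels carry R in all BT libraries and D in all HFD libraries, so a difference between these sets of codes cannot be told apart from diet. Of the hepatocyte markers, 7 of 8 were measured, with Alb at 24213 to 26535 FPKM in BT libraries and at 22791 and 27895 FPKM in HFD replicates 1 and 2. HFD replicate 3 lists Alb and mt-Co1 at 0, so a listed 0 was not read as absence. Its FPKM sum of 814680 therefore lacks both genes and is not of like genes with the other sums. In the other libraries mt-Co1 was at 44334 to 46534 FPKM in BT and at 45802 and 53659 FPKM in HFD replicates 1 and 2. The main fit did not rescale libraries to equal sums.

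**Figure D1:**
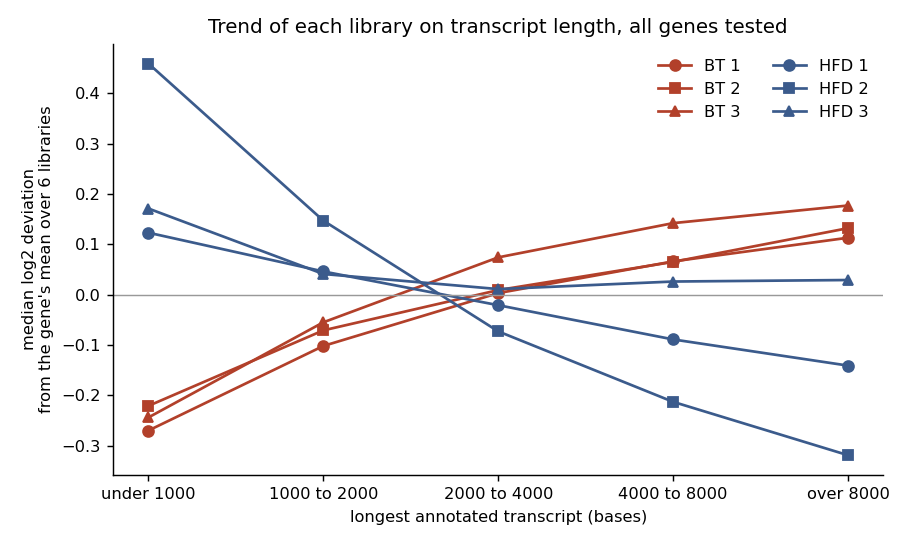
Median deviation of all genes tested from their own mean over the 6 libraries (y axis, log2(FPKM + 1) units) by class of longest annotated transcript (x axis, bases), 1 line per library. In the shortest class the BT libraries lie at -0.27 to -0.22 and the HFD libraries at 0.12 to 0.46, with HFD replicate 2 the steepest line.

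Across the genes grouped as mitochondrial 0 of 21 rose and 2 fell, 9.52% called against 13.3% of all genes. The 2 were Eci1 and Pdk4, of which Pdk4 is not itself a step of beta-oxidation. The median change was 0.10 and 13 of 21 were positive. The 21 genes together summed to 4721, 4937 and 4602 FPKM in BT libraries and 4951, 4531 and 4372 FPKM in HFD libraries. The groups overlapped, and their means were 4754 ± 170 and 4618 ± 299 FPKM (SD, n = 3 each).

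Acsl1 and Acsl5 encode long-chain acyl-CoA synthetases, which activate fatty acids before any oxidation. Acsl1 was at 535, 604 and 450 FPKM in BT libraries and at 462, 336 and 393 FPKM in HFD libraries. BT replicate 3 lay below HFD replicate 1, and the gene did not pass (0.42 ± 0.15, SE, limma adjusted p = 0.103, 95% interval 0.06 to 0.77). Acsl5 averaged 86.7 ± 4.61 and 94.7 ± 9.59 FPKM in BT and HFD livers (adjusted p = 0.461).

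None of the 3 carnitine shuttle genes passed. Cpt1a, the outer-membrane carnitine palmitoyltransferase and the step that malonyl-CoA inhibits, was at 146, 162 and 167 FPKM in BT libraries and at 134, 121 and 148 FPKM in HFD libraries. The groups overlapped by 1 library on each side, with a difference of 0.24 ± 0.11 (adjusted p = 0.173, 95% interval -0.01 to 0.49). Slc25a20, the carrier that moves acylcarnitine across the inner membrane, was at 113, 118 and 114 FPKM in BT libraries and at 146, 133 and 129 FPKM in HFD libraries. All 3 BT values lay below all HFD values, yet the gene did not pass (-0.24 ± 0.10, adjusted p = 0.124). Cpt2, which hands the chain back to CoA inside, differed by -0.13 (95% interval -0.42 to 0.16).

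The 4 acyl-CoA dehydrogenases, which open each cycle for chains of different length, differed by -0.08 to 0.14, and none passed. Acadm, the medium-chain enzyme and the most abundant of them, was at 330, 322 and 362 FPKM in BT libraries and at 362, 281 and 312 FPKM in HFD libraries. Acadvl, the very-long-chain enzyme, was at 235, 257 and 233 FPKM in BT libraries and at 230, 233 and 198 FPKM in HFD libraries. Its groups did not overlap, although the nearest BT and HFD values both round to 233 FPKM, and the difference was 0.14 ± 0.11 (adjusted p = 0.41). Exons of Dvl2 on the opposite strand share 42.9% of Acadvl exon bases, so reads of the 2 genes may not be separable without strand.

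The later steps of the cycle did not pass either. Hadha and Hadhb encode the alpha and beta subunits of the trifunctional protein, and they lie head to head on chromosome 5. Hadha was at 140, 139 and 139 FPKM in BT libraries and at 128, 90.6 and 118 FPKM in HFD libraries, all BT values being higher (0.32 ± 0.14, adjusted p = 0.14). Hadhb was at 141, 134 and 144 FPKM in BT libraries and at 154, 116 and 116 FPKM in HFD libraries, which overlap (0.14 ± 0.13, adjusted p = 0.497). The subunit ratio, Hadha over Hadhb, was 0.964 to 1.03 in BT libraries and 0.784 to 1.02 in HFD libraries. Acaa2, the mitochondrial thiolase and the most abundant mitochondrial gene of the list, was at 732, 797 and 673 FPKM in BT libraries and at 773, 668 and 605 FPKM in HFD libraries (0.11 ± 0.13, adjusted p = 0.579). Hadh and Echs1, a dehydrogenase and a hydratase of the cycle, differed by -0.04 and 0.10.

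Unsaturated fatty acids need extra isomerases and a reductase, and among the mitochondrial steps these genes differed most from each other. Eci1 (chromosome 17, 24426641 to 24439348, GENCODE M21 on GRCm38), the main mitochondrial enoyl-CoA isomerase, was at 225, 234 and 213 FPKM in BT libraries and at 318, 338 and 294 FPKM in HFD libraries. The groups did not overlap and were each tight, and Eci1 fell by 0.50 on the log2 scale (± 0.10, SE, adjusted p = 0.0209). Its longest transcript has 1137 bases and 53.7% GC. After removal of the length and GC trends the difference was -0.18 (adjusted p = 0.206), and the call ended. It also ended without any 1 BT library (-0.50, -0.53 and -0.46 without BT replicate 1, 2 and 3, adjusted p = 0.0944, 0.067 and 0.0743), with equal sums without Alb and mt-Co1 (-0.36, adjusted p = 0.0524) and with quantile normalization (-0.31, adjusted p = 0.0505).

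Eci2, an isomerase found in both mitochondria and peroxisomes, stood the other way. It was at 114, 122 and 110 FPKM in BT libraries and at 102, 54.6 and 83.3 FPKM in HFD libraries. All BT values were higher, HFD replicate 2 was the lowest, and the gene did not pass (0.57 ± 0.20, adjusted p = 0.0934). Without HFD replicate 1 it passed (0.76, adjusted p = 0.0331), without HFD replicate 2 it did not (0.32, adjusted p = 0.137), and after removal of the trends it stood at 0.51 (adjusted p = 0.125). Eci1 over Eci2 was 1.97, 1.92 and 1.94 in BT libraries and 3.13, 6.2 and 3.53 in HFD libraries. The BT ratios were nearly equal and all lower, at the smallest p that 3 libraries against 3 allow (exact permutation test, two-sided, p = 0.1, and 0.2 adjusted over the 6 gene ratios compared). Any ratio without overlap gives that p, so it adds nothing to the separation. The longest transcripts have 1137 bases in Eci1 and 2874 in Eci2, and the ratio was not recomputed with the trends removed. Decr1, the mitochondrial dienoyl-CoA reductase, was at 129, 142 and 141 FPKM in BT libraries and at 123, 111 and 105 FPKM in HFD libraries. All BT values were higher, and Decr1 did not pass (0.28 ± 0.10, adjusted p = 0.101). Among the alternatives it passed only with equal sums without Alb and mt-Co1 (0.42, adjusted p = 0.0451).

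Electrons from the dehydrogenases pass through the flavoprotein ETF, encoded by Etfa and Etfb, to the ubiquinone reductase encoded by Etfdh. Etfb was at 402, 450 and 366 FPKM in BT libraries and at 461, 628 and 432 FPKM in HFD libraries, with HFD replicate 2 far above the others (-0.30 ± 0.16, adjusted p = 0.216). Its longest transcript has 893 bases, and after removal of the trends the difference was 0.07. Gm45233, a longer gene model on the same strand, shares 58.2% of its exon bases. Etfa and Etfdh differed by 0.04 and 0.23, with overlapping libraries.

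Pdk4 (chromosome 6, 5483351 to 5496309) encodes a kinase that inactivates pyruvate dehydrogenase and so spares glucose while fat is burned. It had the largest change of the 39 genes. Its level was 2.24, 3.22 and 4.0 FPKM in BT libraries and 6.28, 5.26 and 8.77 FPKM in HFD libraries. The groups did not overlap, and the means were 3.15 ± 0.88 and 6.77 ± 1.8 FPKM (SD, n = 3 each). Pdk4 fell by 0.90 (± 0.21, SE, adjusted p = 0.029), and by 0.98 after removal of the trends (adjusted p = 0.0284). It was the least abundant gene of the list, with roughly 113 to 195 fragments in BT libraries and 252 to 476 in HFD libraries. The call ended without BT replicate 1 (-0.73, adjusted p = 0.105), BT replicate 2 (-0.92, adjusted p = 0.0775) or HFD replicate 3 (-0.72, adjusted p = 0.0523), and with no filter on low genes (adjusted p = 0.0806).

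**Figure D2:**
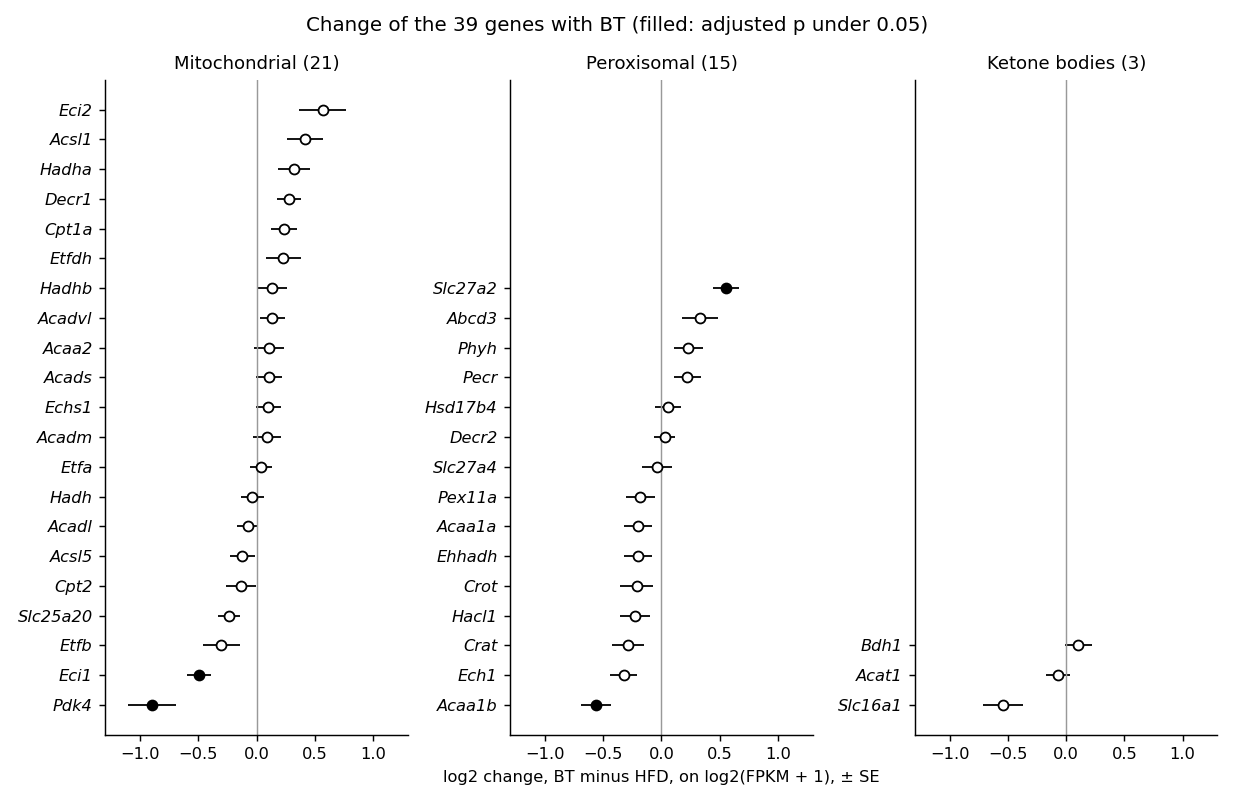
Log2 change (BT minus HFD, x axis, log2(FPKM + 1) units) of each of the 39 genes with limma's SE as bars, ordered by size within each pathway, with filled points past adjusted p 0.05. Filled points are Slc27a2 on the right and Acaa1b, Eci1 and Pdk4 on the left, and the open points other than Eci2, Acsl1 and Slc16a1 lie between -0.33 and 0.33.

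Among the 15 peroxisomal genes 1 rose and 1 fell, 13.3% called, the same share as over all genes. The median change was -0.18 and 6 of 15 were positive. Summed levels overlapped, with 6845, 7227 and 6730 FPKM in BT libraries and 7427, 7045 and 6770 FPKM in HFD libraries. The 4 genes of the peroxisomal cycle summed to 1969, 2185 and 1879 FPKM in BT libraries and 2731, 2809 and 2549 FPKM in HFD libraries. The import and activation genes stood the opposite way, at 1388, 1529 and 1495 FPKM in BT libraries and 1103, 925 and 1071 FPKM in HFD libraries. Neither pair of ranges overlapped, and each sum was dominated by its 1 called gene.

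Slc27a2 (chromosome 2, 126552407 to 126588243), a fatty acid transport protein with very-long-chain acyl-CoA synthetase activity, was the 1 gene that rose. It was at 1155, 1281 and 1268 FPKM in BT libraries and at 863, 769 and 890 FPKM in HFD libraries. The lowest BT value lay well above the highest HFD value, with a change of 0.56 ± 0.11 (SE, adjusted p = 0.0206). Removal of the trends left it at 0.54 (adjusted p = 0.024), and no scaling between libraries ended the call. It missed the threshold without BT replicate 1, 2 or 3 (0.60, 0.53 and 0.54, adjusted p = 0.0751, 0.0855 and 0.0711), and with no filter on low genes (adjusted p = 0.0547). Gm26697, on the opposite strand, shares 11.2% of Slc27a2 exon bases. Abcd3, a peroxisomal membrane transporter of acyl-CoA, was at 224, 239 and 218 FPKM in BT libraries and at 229, 148 and 172 FPKM in HFD libraries. HFD replicate 1 lay among the BT values (0.33 ± 0.16, adjusted p = 0.179), and without it Abcd3 passed (0.50, adjusted p = 0.0287). Slc27a4, a second fatty acid transport protein, was low at 8.37 to 9.67 FPKM in BT libraries and 8.47 to 11.05 FPKM in HFD libraries (adjusted p = 0.855). It is not confined to peroxisomes, and Slc27a2 was grouped as peroxisomal without being shown to be confined to them.

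The last step of the peroxisomal cycle is a thiolase that mice carry in 2 copies, Acaa1a and Acaa1b, both on chromosome 9. Acaa1b (119148023 to 119157093) was at 1293, 1480 and 1187 FPKM in BT libraries and at 1917, 2085 and 1829 FPKM in HFD libraries. The groups did not overlap, and Acaa1b fell by 0.56 (± 0.13, SE, adjusted p = 0.0282). Acaa1a (119339676 to 119350299) was at 222, 238 and 220 FPKM in BT libraries and at 266, 295 and 224 FPKM in HFD libraries. The nearest values were 238 FPKM in BT and 224 FPKM in HFD, and Acaa1a did not pass (-0.20 ± 0.12, adjusted p = 0.288).

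Acaa1b was the more abundant copy in every library. Acaa1b over Acaa1a was 5.82, 6.23 and 5.38 in BT libraries and 7.2, 7.07 and 8.15 in HFD libraries, and did not overlap (-0.36 on the log2 scale, exact permutation test, two-sided, p = 0.1, adjusted p = 0.2). The longest reading frames of the 2 genes are 96.5% identical, with 1231 of 1275 bases shared and an identical run of 327 bases. How reads that match both were assigned is not given in the sources used here, so the split between the copies is uncertain. Dlec1, on the opposite strand, shares 11.4% of Acaa1b exon bases. After removal of the trends Acaa1b stood at -0.32 (adjusted p = 0.0851) and Acaa1a at -0.24 (adjusted p = 0.21). The changes of the 2 copies thus lay closer together than the -0.56 and -0.20 as measured. The Acaa1b transcript has 1689 bases and 58.9% GC, and that of Acaa1a 3668 bases and 55.3% GC. The Acaa1b call also ended without BT replicate 1, 2 or 3 (-0.55, -0.65 and -0.49, adjusted p = 0.12, 0.0602 and 0.0995). Without HFD replicate 2 (-0.51, adjusted p = 0.0648) and with no filter on low genes (adjusted p = 0.0746) it ended too.

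Ehhadh and Hsd17b4, the L- and D-bifunctional enzymes that carry out the middle steps of the peroxisomal cycle, did not pass. Ehhadh was at 206, 222 and 233 FPKM in BT libraries and at 282, 220 and 263 FPKM in HFD libraries (-0.20 ± 0.12, adjusted p = 0.272). Hsd17b4 differed by 0.06, with a 95% interval of -0.20 to 0.32.

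Phytanic acid, a branched fatty acid from the diet, is shortened by alpha-oxidation, in which Phyh and Hacl1 act in turn. Phyh, the phytanoyl-CoA hydroxylase, was the most abundant of the 39 genes. It was at 2096, 2052 and 1918 FPKM in BT libraries and at 1892, 1741 and 1548 FPKM in HFD libraries. All BT values were higher by a small margin (0.23 ± 0.12, adjusted p = 0.226), and with the trends removed the difference passed (0.44, adjusted p = 0.0315). Quantile normalization was the only other alternative in which Phyh passed (0.44, adjusted p = 0.0297). Hacl1, the lyase of the next step, was at 81.7, 80.7 and 72.1 FPKM in BT libraries and at 109, 83.4 and 83.8 FPKM in HFD libraries. All BT values were lower, without passing (-0.23 ± 0.13, adjusted p = 0.257). A gene model on the same strand, Gm49387, shares 33.3% of its exon bases.

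**Figure D3:**
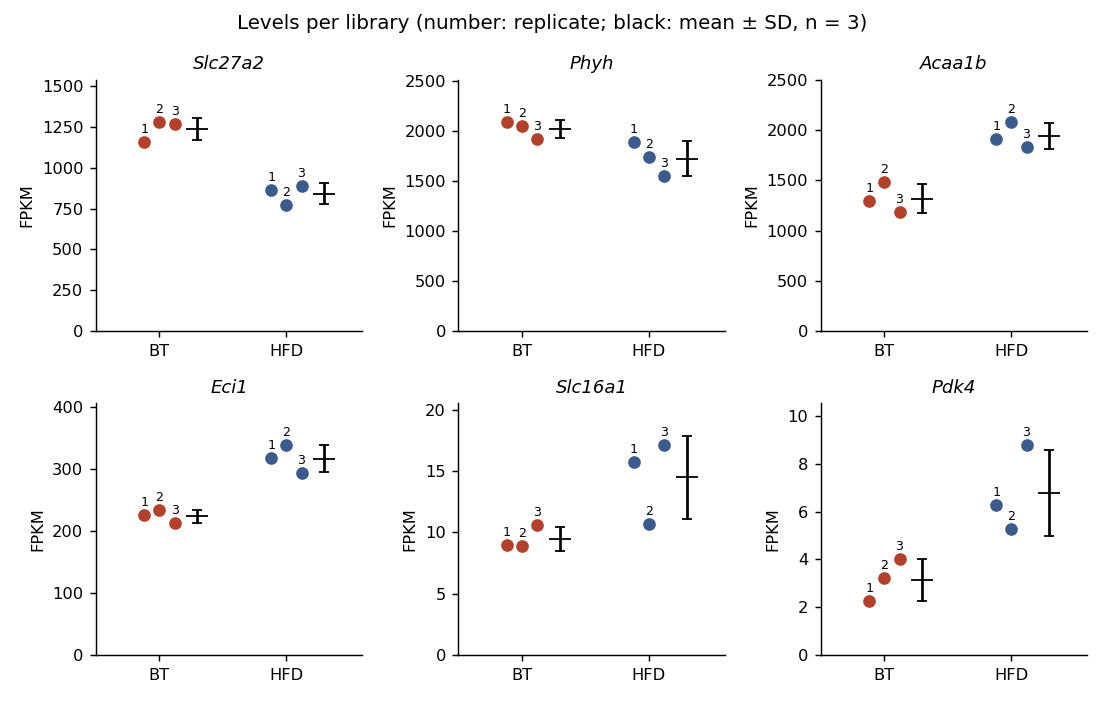
FPKM per library (y axes from 0) of 6 genes in BT and HFD livers, with replicate numbers above the points and the mean ± SD in black. In each panel the 3 BT values lie apart from the 3 HFD values, higher for Slc27a2 and Phyh and lower for Acaa1b, Eci1, Slc16a1 and Pdk4.

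Peroxisomal genes for unsaturated chains did not pass. Ech1, a dienoyl-CoA isomerase of mitochondria and peroxisomes, was at 438, 489 and 435 FPKM in BT libraries and at 547, 634 and 530 FPKM in HFD libraries. All BT values were lower (-0.33 ± 0.11, adjusted p = 0.0905), and after removal of the trends the difference was -0.03. Pecr, a peroxisomal trans-2-enoyl-CoA reductase, was at 155, 152 and 127 FPKM in BT libraries and at 135, 118 and 118 FPKM in HFD libraries. These overlapped (0.22 ± 0.12, adjusted p = 0.223), and Pecr passed once the trends were removed (0.53, adjusted p = 0.0363). Decr2, the peroxisomal dienoyl-CoA reductase, differed by 0.03 (95% interval -0.19 to 0.24).

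Carnitine esters of shortened chains leave peroxisomes through Crot and Crat, the carnitine octanoyl- and acetyltransferases. Crat, which also acts in mitochondria, was at 39.8, 53.5 and 53.8 FPKM in BT libraries and at 55.7, 60.1 and 63.2 FPKM in HFD libraries. BT replicate 1 was the lowest, the groups did not overlap, and Crat did not pass (-0.29 ± 0.14, adjusted p = 0.175). Crot was at 315, 295 and 352 FPKM in BT libraries and at 433, 307 and 385 FPKM in HFD libraries (-0.21 ± 0.14, adjusted p = 0.334). Pex11a, which promotes peroxisome division and is a PPARA target in mouse liver, was at 153, 179 and 180 FPKM in BT libraries and at 202, 168 and 214 FPKM in HFD libraries (-0.18 ± 0.12, adjusted p = 0.334).

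None of the 3 ketone body genes passed. Acat1, the mitochondrial acetoacetyl-CoA thiolase that joins 2 acetyl-CoA, was at 219, 223 and 218 FPKM in BT libraries and at 241, 245 and 211 FPKM in HFD libraries (-0.07 ± 0.10, adjusted p = 0.639). Bdh1, which reduces acetoacetate to beta-hydroxybutyrate, was at 229, 291 and 259 FPKM in BT libraries and at 246, 233 and 243 FPKM in HFD libraries (0.10 ± 0.11, adjusted p = 0.555). The 95% intervals of these differences were -0.30 to 0.16 for Acat1 and -0.16 to 0.36 for Bdh1.

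Slc16a1 (chromosome 3, 104638668 to 104658462) encodes MCT1, a transporter of lactate, pyruvate and ketone bodies. It was at 8.95, 8.85 and 10.6 FPKM in BT libraries and at 15.7, 10.7 and 17.1 FPKM in HFD libraries. All BT values were lower, the highest of them next to HFD replicate 2, and the difference missed the threshold (-0.55 ± 0.17, adjusted p = 0.0673). It passed without HFD replicate 2 (-0.74, adjusted p = 0.0241) and after removal of the trends (-0.67, adjusted p = 0.0309). Of the 12 alternative settings that kept all libraries, Slc16a1 passed in 5. Besides removal of the trends these were median-of-ratios scaling, quantile normalization, array weights and a replicate block (adjusted p = 0.0347, 0.0392, 0.028 and 0.0325). Bsg, which encodes basigin, the protein that carries MCT1 to the membrane, fell. It was at 180, 188 and 170 FPKM in BT libraries and at 263, 299 and 281 FPKM in HFD libraries (-0.64 ± 0.10, adjusted p = 0.0111), at -0.39 with the trends removed, and missed the threshold without BT replicate 1 (-0.65, adjusted p = 0.0571).

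**Figure D4:**
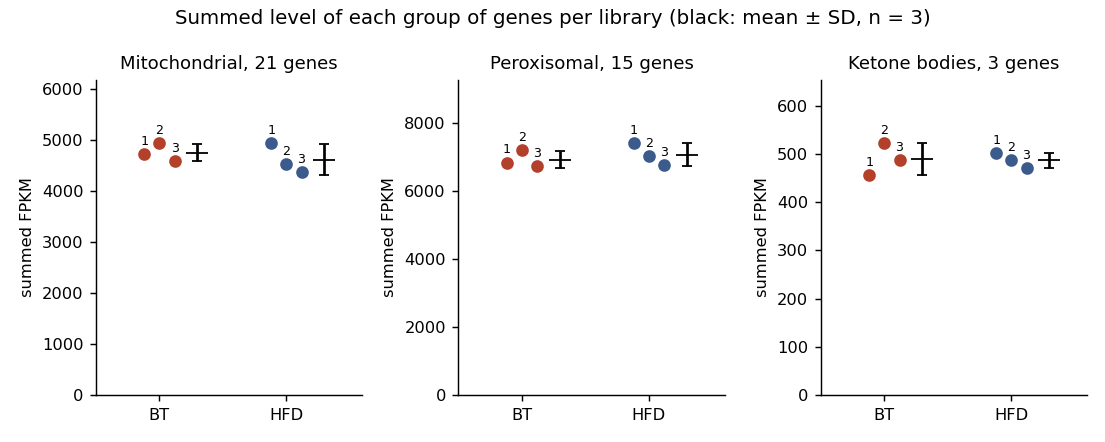
Summed FPKM per library (y axes from 0) of the 21 mitochondrial, 15 peroxisomal and 3 ketone body genes in BT and HFD livers, with the mean ± SD in black. In each panel the BT and HFD libraries overlap.

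Separation of the libraries was about as frequent in the list as in the whole table. The 3 BT values lay all above or all below the 3 HFD values in 14 of the 39 genes (35.9%), against 39.3% of all genes tested. They were all above in 6 of the 39 genes, against 23.2% of all genes, and all below in 8 of the 39, against 16.1%. In the list more genes thus lay below than above, whereas over all genes more lay above, and this difference was not tested. The 6 were Acadvl, Hadha, Eci2, Decr1, Phyh and Slc27a2, and the 8 were Slc25a20, Eci1, Pdk4, Acaa1b, Crat, Ech1, Hacl1 and Slc16a1. With 3 libraries per diet no exact permutation test of a single gene can go below p = 0.1.

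Differences between libraries also went with transcript length inside the list. Across the 39 genes, HFD replicate 2 minus the mean of the other HFD libraries had a Pearson correlation of -0.55 with log10 transcript length and 0.53 with GC content. Over all genes tested with an annotated transcript these were -0.39 and 0.31. The BT minus HFD change of the 39 genes had a correlation of 0.17 with length, against 0.41 over all genes. After removal of the trends the correlation with length was -0.27 in the 39 genes and 0.0 over all genes. In the list the correlation with length thus changed sign, and neither of its 2 values was tested. These are descriptions across genes, which share libraries and are not replicates. With the trends removed, 3 of the 39 genes were higher (Phyh, Pecr and Slc27a2) and 2 lower (Pdk4 and Slc16a1), so Slc27a2 and Pdk4 were called in both fits.

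**Figure D5:**
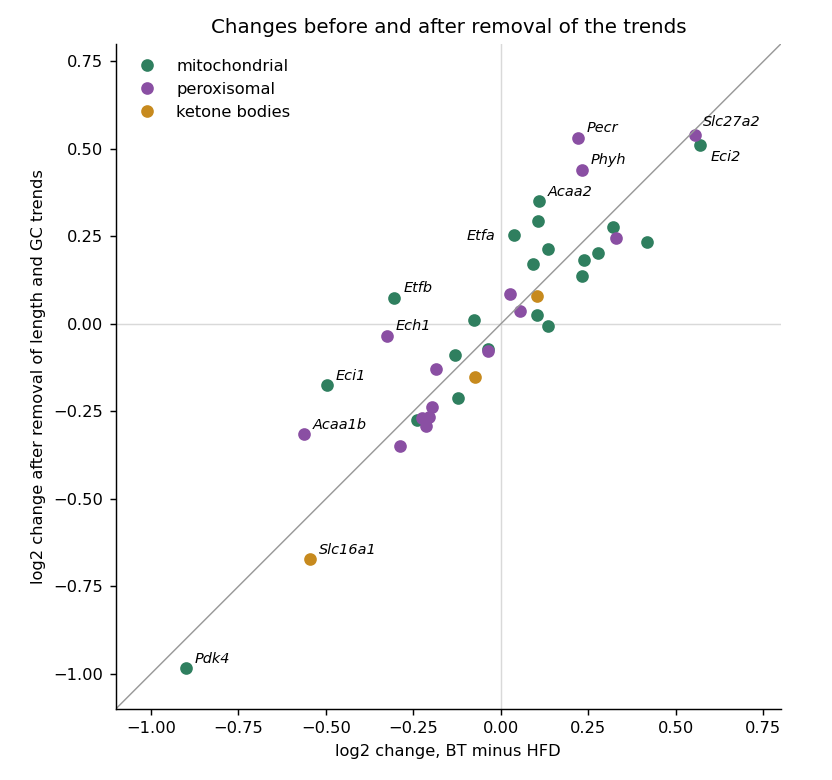
Log2 change of the 39 genes as measured (x axis) and once the fitted length and GC trends were taken out of every library (y axis), both BT minus HFD in log2(FPKM + 1) units, with the line of equality. Of the labelled genes, Slc27a2, Eci2 and Pdk4 lie near the line and Slc16a1 lies somewhat below it. Eci1, Acaa1b, Ech1, Etfa, Etfb, Acaa2, Phyh and Pecr lie above it.

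Of 93 further genes of these pathways and their regulators, 80 passed the filter, and 3 rose and 5 fell (10.0% called, against 13.3% of all genes). Among 15 other mitochondrial genes 2 fell. Cpt1b, the muscle-type carnitine palmitoyltransferase, was at 3.78, 4.6 and 4.79 FPKM in BT libraries and at 7.21, 6.07 and 8.0 FPKM in HFD libraries (-0.58 ± 0.14, adjusted p = 0.0298, and -0.61, adjusted p = 0.034, with the trends removed). Gm44502, a longer gene model on the same strand, shares 81.4% of Cpt1b exon bases, so the level of Cpt1b and any ratio built on it are uncertain. The Cpt1b call ended with TPM scaling, with equal sums without Alb and mt-Co1 and with no filter (adjusted p = 0.0745, 0.0555 and 0.0719). Cpt1a over Cpt1b was 34.8 to 38.7 in BT libraries and 18.5 to 19.9 in HFD libraries, without overlap (exact permutation test, two-sided, p = 0.1, adjusted p = 0.2). Summed muscle markers were at 18.0 to 24.5 FPKM in BT libraries and at 0.263, 66.1 and 13.1 FPKM in HFD replicates 1, 2 and 3. In the same HFD replicates 1, 2 and 3 Cpt1b was at 7.21, 6.07 and 8.0 FPKM. The share of muscle in the level of Cpt1b was not tested. Mcee, an epimerase of propionate breakdown, fell by 0.49 (adjusted p = 0.0455), and stood at -0.12 with the trends removed. Its call also ended with no filter, without the variance trend and under each of the 4 other scalings, with adjusted p between 0.0508 and 0.0897.

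Of 18 other peroxisomal oxidation genes 1 rose and 1 fell. Acox3, an oxidase of branched-chain acyl-CoA, rose by 0.56 ± 0.13 (adjusted p = 0.029, and 0.0395 with the trends removed), with 11.5, 12.2 and 11.3 FPKM in BT libraries and 8.2, 6.26 and 8.45 FPKM in HFD libraries. With no filter it missed the threshold (adjusted p = 0.065). Acnat2, an acyl-CoA amino acid N-acyltransferase family gene, was at 10.6, 10.1 and 14.6 FPKM in BT libraries and at 22.7, 25.2 and 28.3 FPKM in HFD libraries (-1.06 ± 0.15, adjusted p = 0.00826, and -0.88, adjusted p = 0.025, with the trends removed), and it kept passing whichever of the 6 libraries was left out. Of 14 peroxisome biogenesis genes 1 rose, Pex26, which anchors an import complex to the peroxisome membrane (0.77 ± 0.18, adjusted p = 0.0327, and 0.71, adjusted p = 0.0526, with the trends removed). Its call also ended with median-of-ratios scaling (adjusted p = 0.055) and with no filter (adjusted p = 0.0818). Of 8 other ketone body genes Bsg alone was called.

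Among 25 regulators 1 rose and 1 fell. Ppara itself was at 50.5, 64.8 and 53.5 FPKM in BT libraries and at 40.8, 39.1 and 53.6 FPKM in HFD libraries, which overlap (0.34 ± 0.15, adjusted p = 0.155). Prkaa2, a catalytic subunit of the energy sensor AMPK, was at 8.06, 7.43 and 7.96 FPKM in BT libraries and at 5.69, 4.1 and 5.87 FPKM in HFD libraries, and rose by 0.52 ± 0.14 (adjusted p = 0.0447). Acacb, the acetyl-CoA carboxylase whose malonyl-CoA inhibits CPT1, was at 3.5, 4.63 and 4.79 FPKM in BT libraries and at 6.36, 6.56 and 7.17 FPKM in HFD libraries, and fell by 0.54 ± 0.13 (adjusted p = 0.0338). With the trends removed Acacb stood at -0.74 (adjusted p = 0.0171) and Prkaa2 at 0.26 (adjusted p = 0.121). The Acacb call ended with TPM scaling, with equal sums without Alb and mt-Co1 and with no filter (adjusted p = 0.0716, 0.0551 and 0.076), and the Prkaa2 call with TPM scaling and with no filter (adjusted p = 0.0596 and 0.0951). Of the 8 called genes outside the list of 39, Cpt1b, Mcee, Acox3, Pex26, Prkaa2, Acacb and Bsg each missed the threshold without BT replicate 1, with adjusted p between 0.0571 and 0.147, and all but Bsg also without other libraries.

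Markers of other cells were measured in the same libraries. Summed stellate cell markers did not overlap, at 68.9 to 91.6 FPKM in BT libraries and 95.1 to 151 FPKM in HFD libraries. Of 5 tested stellate markers 1, Col3a1, fell by 1.36 (adjusted p = 0.0354, and 0.0373 with the trends removed), while Lrat was listed at 0 in all 6 libraries. Pancreas markers did not overlap either, at 2.45 to 4.09 FPKM in BT libraries and 5.09 to 6.25 FPKM in HFD libraries. All of that came from Cela1, which fell by 0.67 (adjusted p = 0.0322), since Cpa1, Prss2, Ins2 and Pnlip were listed at 0. With the trends removed Cela1 stood at -0.35 (adjusted p = 0.166), and TPM scaling, equal sums without Alb and mt-Co1, array weights and no filter each ended its call too. Among 7 hepatocyte markers Ttr fell by 0.76 (adjusted p = 0.0157, and 0.0419 with the trends removed). Summed macrophage, endothelial, cholangiocyte, adipocyte and lymphoid or neutrophil markers overlapped between diets, and none of their tested genes passed in the main fit. Of the macrophage markers, Cd5l had all BT values above all HFD values (0.43, adjusted p = 0.0503). With the trends removed Cd5l passed (0.55, adjusted p = 0.0307). Clec4f and Cd68 stood lower in BT livers without passing (-0.18 and -0.58). The share of these cells in the levels of Pdk4, Slc16a1 and the other genes was not tested.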

How the data were processed

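Per the labels' protocols, libraries were made with the TruSeq kit from liver mRNA. The deposited table gives FPKM per Ensembl mouse gene for each library. Cufflinks 2.1.1, STAR 2.4.0 and CASAVA 1.8.2 appear in the submitters' processing notes, without the role of each. Not given in the sources used here are the build, the annotation and the strand setting. GENCODE M21 (GRCm38) named 22671 identifiers and left 803 unnamed. Its coordinates may not be of the authors' build. Depth was estimated from the median of FPKM times kilobases between 0.03 and 0.1 in genes with 1 transcript over 1000 bases, and is rough. Transcript length is that of the longest transcript.

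log2(FPKM + 1) was tested by limma 3.58.1 in R 4.3.3 (trended variance, two-sided, Benjamini-Hochberg over 10476 genes, threshold 0.05), and the code was tested on simulated data, where small changes were missed. Each change is BT minus HFD with limma's SE, and each level has an SD. Alternatives, with 12 settings and 6 fits without 1 library, are in the closing section. The members, lists and tests were chosen with earlier results of these data known. Values were printed for members called in any setting, members without overlap and the most abundant member of each role, and for the other pathway genes that were called. Single values of some other pathway genes are not reported here. Groups and replicate numbers came from sample titles. Coding sequences were compared by global alignment in Biopython 1.88. Deviations from the group means correlated at 0.163, 0.097 and 0.147 between same-numbered BT and HFD libraries. Between libraries of unlike number the correlations were -0.134 to 0.009. The sample titles do not name pairs, so the main fit did not take the numbers as pairs, and a replicate block was run as an alternative.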

Additional observations from a re-analysis of the deposited data

How the results depend on the processing

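None of the 39 genes was called in opposite directions by any 2 fits. Of 701 values recomputed for them, 669 kept their side of the threshold, 20 missed a threshold passed before and 12 passed one missed before. Among those kept, 26, of 11 genes, changed sign while uncalled in both fits. Calls among all genes numbered 545 with no filter, 904 with the length and GC trends removed and 173 to 1537 without 1 library, against 1398. The numbers of the list called higher were 0 with no filter, 2 with equal sums without Alb and mt-Co1, 2 with quantile normalization, 3 with the trends removed and 0 to 3 without 1 library, against 1. Those called lower were 1 with no filter and 0 to 3 without 1 library, against 3. For the 93 further genes, 0 were higher with no filter, 8 with equal sums without Alb and mt-Co1, 6 with quantile normalization, 5 with a replicate block and 0 to 5 without 1 library, against 3. Lower were 2 with no filter, 2 with TPM scaling, 2 with equal sums without Alb and mt-Co1 and 1 to 4 without 1 library, against 5. The cause was not tested.

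The median change of the mitochondrial genes (0.10) was 0.19 with TPM scaling, 0.24 with equal sums without Alb and mt-Co1, 0.185 with quantile normalization, 0.033 with median-of-ratios scaling and 0.04 to 0.182 without 1 library. That of the peroxisomal genes (-0.18) was -0.045, -0.043 and -0.078 with those equal sums, quantile normalization and the trends removed, and -0.079 without Crat, Ech1 and Slc27a4, and -0.168 to -0.098 without 1 library (lowest in size without HFD replicate 1). That of the ketone body genes (-0.07) was 0.018 with TPM scaling, 0.067 with those equal sums and 0.073 with quantile normalization, -0.143 with median-of-ratios scaling and -0.14 to -0.035 without 1 library (without HFD replicates 3 and 2). The median of all genes was 0.15 with TPM scaling and 0.19 with those equal sums, against 0.07, and the share of calls that were higher was 71.5% with those equal sums and 34.7% with median-of-ratios scaling, against 45.1%. With a replicate block Slc16a1 passed as well (-0.55, adjusted p = 0.0325), and 1808 genes were called. Every library's deviations correlated best with those of its own number in the other diet, a hint from the data and not from the design. Depth limits Pdk4 most among the 39 genes.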

Other observations

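In some pathway genes 1 library stood apart from the others of its diet, and these genes were picked after their values were seen. Aacs, which encodes the cytosolic acetoacetyl-CoA synthetase that turns a ketone body back to lipid precursors, was at 42.3, 43.4 and 14.97 FPKM in BT replicates 1 to 3 and at 12.3, 12.99 and 20.7 FPKM in HFD replicates 1 to 3. BT replicate 3 thus lay among the HFD values, and the gene did not pass (0.98 ± 0.38, SE, limma adjusted p = 0.115). BT replicate 3 was also the lowest BT library for Pex26, with 22.9, 23.2 and 13.9 FPKM in BT libraries and 10.6, 11.2 and 11.3 FPKM in HFD libraries, but there it lay above all HFD values, and Pex26 was called. Lpin1, a phosphatidate phosphatase that also acts as a coactivator of PPARA, was at 4.88, 4.96 and 5.32 FPKM in BT libraries and at 4.16, 6.47 and 16.4 FPKM in HFD libraries, where replicate 3 stood apart (adjusted p = 0.347).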
